A study of Mus musculus with 30 samples.

Results

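The endothelin system was followed through 5 genes, the ligand genes Edn1 and Edn3, the receptor genes Ednra and Ednrb and the converting enzyme gene Ece1, which were looked up by symbol among the 41128 genes counted in aorta and in kidney. All 5 were found in both tissues. The study asked how the epidermal growth factor receptor (EGFR) of vascular smooth muscle bears on the response to a high-fat diet (HFD) compared with a standard-fat diet (SFD). KO mice carried a floxed Egfr gene and a tamoxifen-inducible Cre driven by the Smmhc (Myh11) promoter, while WT mice carried the same Cre without the floxed alleles, and mice of both genotypes received tamoxifen. All were male, were labelled C57Bl6J and were fed from 6 weeks of age for 18 weeks. Aortae were sequenced from 3 WT-SFD, 4 WT-HFD, 3 KO-SFD and 4 KO-HFD mice, and kidneys from 4 mice of each group. Each library came from 1 mouse and is named below by its title, and 3 mice whose number stands in titles of both tissues (BS_1309 and SMMHC1309, BS_1319 and SMMHC1319, BS_1504 and SMMHC1504) gave an aorta and a kidney.

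The promoter that drives the Cre is active in smooth muscle, so cells of other types are expected to keep Egfr, and each library was made from whole tissue. In such bulk samples fewer cells of a type and less RNA per cell cannot be told apart. The aorta libraries held 6403699 to 13052870 counts with a median of 8998366, and the kidney libraries 16354880 to 28331314 with a median of 19544128. Values are given as FPM, the unit used in the study (fragments of a gene scaled to a fixed library size), with libraries scaled by edgeR's TMM factors. A count of 3 corresponded to 0.240 to 0.433 FPM in the aorta and 0.103 to 0.190 FPM in the kidney. The tissues carried the transcripts that their labels imply. The smooth muscle actin gene Acta2 stood at 4235 to 8745 FPM in the aortae, and the kidneys held the proximal tubule phosphate transporter gene Slc34a1 at 5895 to 10805 FPM and the thick ascending limb gene Umod at 2543 to 5688 FPM.

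Endothelins are short peptides cut from larger precursors. Furin-type proteases release an inactive intermediate, and endothelin converting enzymes, of which ECE1 is the main one in vessels, trim it to the active peptide. Endothelin 1, made chiefly by endothelial cells, is among the strongest vasoconstrictors known. It acts through the ETA receptor (Ednra) on smooth muscle, while the ETB receptor (Ednrb) binds endothelin 1 and endothelin 3 alike, triggers release of nitric oxide from endothelium and clears the peptides. In the kidney the collecting duct makes endothelin 1, which lowers sodium and water reabsorption there through ETB.

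Both ligand genes encode the mature peptide within the second exon. The coding stretches are shown because the ligands, which ETA tells apart while ETB does not, can be compared there base by base. The stretches were read from GENCODE vM21 transcripts on GRCm38/mm10, 5′ to 3′ on the plus strand, at chr13:42303649-42303711 for Edn1 and at chr2:174761749-174761811 for Edn3. Capitals mark the bases that differ between them.
Edn1: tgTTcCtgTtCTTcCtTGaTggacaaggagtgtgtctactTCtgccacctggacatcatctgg
Edn3: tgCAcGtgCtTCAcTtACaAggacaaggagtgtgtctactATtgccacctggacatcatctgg
Of the 63 bases, 50 (79.4%) were identical. The stretch holds 21 codons, and 7 of the 8 codons that differ lie among the first 8, whereas 1 lies among the last 13. Not every differing codon changes the residue, since tgT and tgC both encode cysteine.

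The gene models lie on chromosome 13 at 42301476 to 42307990 for Edn1 (ENSMUSG00000021367, plus strand) and on chromosome 2 at 174760619 to 174784042 for Edn3 (ENSMUSG00000027524, plus strand). Ednra (ENSMUSG00000031616) lies on the minus strand of chromosome 8 at 77663031 to 77724464, Ednrb (ENSMUSG00000022122) on the minus strand of chromosome 14 at 103814625 to 103844402, and Ece1 (ENSMUSG00000057530) on the plus strand of chromosome 4 at 137862237 to 137965229. The strand setting of the counting is not stated, so overlapping genes matter. Gm47118, antisense to Edn1, shares 35 exonic bases with it and is not among the genes of the count tables, so its reads could not be set beside those of Edn1. The opposite-strand gene 4933431K23Rik shares 91 exonic bases with Ednra and had 1 to 10 counts in the aortae and 0 to 4 in the kidneys. Gm13012, antisense to Ece1 with 0 shared exonic bases, had 4 to 34 counts in the aortae and 1 to 10 in the kidneys. These counts are small beside those of Ednra and Ece1 in the aorta, where the lowest library held 50 counts of Ednra and 1287 of Ece1.

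To compare genes, levels were divided by exon length (FPKM). In the aorta Ece1 was the most abundant member, at 36.3 ± 4.004 FPKM (SD, n = 14), followed by Edn1 at 9.74 ± 2.24 FPKM. The receptor genes stood close together, Ednrb at 2.09 ± 1.00 and Ednra at 2.06 ± 0.413 FPKM, and did not differ beyond their spread. Edn3 came last, at 0.0769 ± 0.0775 FPKM with 4 of 14 aortae at 0 counts. Apart from the receptor pair, the ranges of neighbours in this order did not overlap.

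The order was different in the kidney. Ece1 again came first, at 17.1 ± 1.699 FPKM (SD, n = 16), but Ednrb was next at 4.12 ± 0.673 FPKM. Edn3 stood at 1.95 ± 0.709 and Edn1 at 1.07 ± 0.353 FPKM, with overlapping ranges. Ednra was the lowest member, at 0.341 ± 0.0889 FPKM, and its highest kidney (0.532) lay within the range of Edn1 (0.326 to 1.56).

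**Figure D1:**
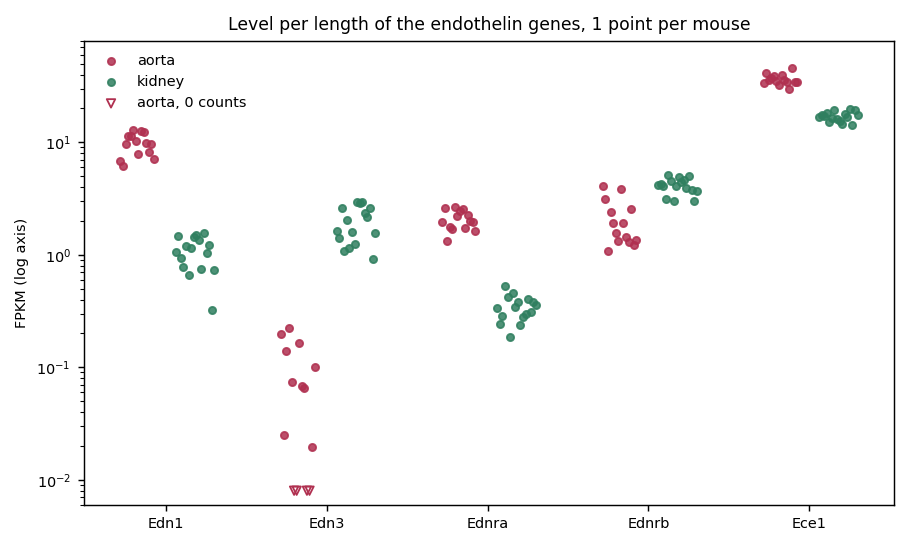
Level per length (FPKM, log axis) of the 5 members in each aorta (n = 14) and kidney (n = 16), 1 point per library, with open triangles for libraries at 0 counts. The 2 receptor genes lie together in the aorta and far apart in the kidney, and Edn3 lies far below Edn1 in the aorta only.

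Within each library, the ratio of the receptor genes per length gave the same picture. Ednrb over Ednra had a median of 0.833-fold in the aorta, with log2 ratios from −0.80 to 1.06, and of 12.2-fold in the kidney, with log2 ratios from 2.55 to 4.56. The median group values ran from 0.722 (KO-HFD) to 1.21 (WT-SFD) in the aorta and from 11.2 (KO-HFD) to 14.4 (KO-SFD) in the kidney. For the ligand genes, Edn3 over Edn1 had a median of 0.00644-fold in the aorta and 1.83-fold in the kidney. The kidney log2 ratio was below 0 in the 2 kidneys of mice SMMHC1446 (−0.05) and SMMHC1642 (−0.21) and reached 1.97 elsewhere. Within the kidney, the Edn3 over Edn1 log2 ratio was 1.03 to 1.45 in KO-HFD and −0.21 to 0.77 in WT-HFD, and the Ednrb over Ednra log2 ratio was 3.69 to 4.22 in KO-SFD and 2.96 to 3.61 in KO-HFD. These pairs of groups did not overlap and were picked out after the values were seen, so no test was made. How often ratios of other gene pairs separate the same groups was not counted. No test was made between tissues, since aortae and kidneys were sequenced at different places, and tissue and place cannot be told apart.

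**Figure D2:**
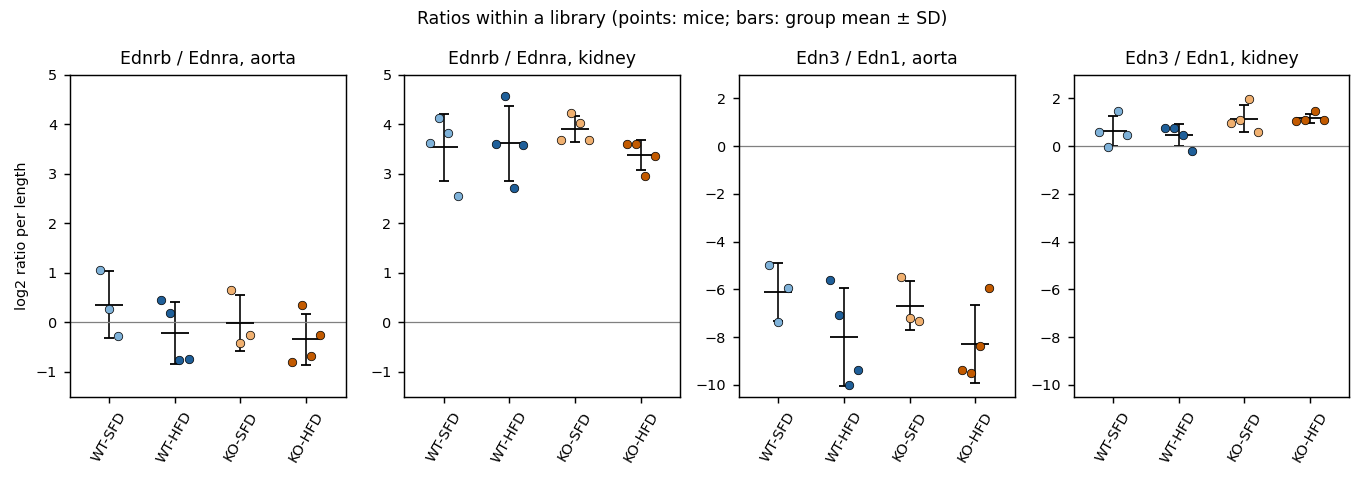
Log2 ratio per length, with 0.5 added to the counts, of Ednrb over Ednra and of Edn3 over Edn1 in each library, by tissue and group. Bars are group mean ± SD. All kidneys lie above all aortae for both ratios, and most groups overlap within a tissue, apart from KO-HFD against WT-HFD in Edn3 over Edn1 and KO-SFD against KO-HFD in Ednrb over Ednra, both in the kidney.

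The targeted gene was examined first. Egfr in WT aortae stood at 46.7, 39.5 and 54.3 FPM on SFD (mice BS_1309, BS_1310 and BS_1445) and at 65.1, 57.0, 51.2 and 57.0 FPM on HFD. The KO aortae held 26.8, 35.5 and 28.0 FPM on SFD and 27.5, 40.6, 39.7 and 33.4 FPM on HFD. KO lay below WT without overlap on SFD, as did 4.37% of genes, and on HFD, as did 2.03%. Averaged over the diets, Egfr in KO against WT fell by 0.67 on the log2 scale (SE 0.11, edgeR adjusted p = 0.0132), whereas in the kidney the average difference was −0.0015 (SE 0.09, range of libraries 36.9 to 60.8 FPM). Without KO-SFD mouse BS_1507 the aortic Egfr difference was −0.62 (edgeR adjusted p = 0.0916), and with library totals in place of TMM it was −0.49 (edgeR adjusted p = 0.201). Within a single diet the Egfr difference passed on neither SFD (−0.64, edgeR adjusted p = 0.531) nor HFD (−0.70, edgeR adjusted p = 0.13). Transcript remained in KO aortae, and which cells it came from cannot be told from whole tissue.

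In none of the 7 contrasts of either tissue did a member pass the adjusted threshold (edgeR, adjusted p under 0.05). The 7 contrasts were the diet effect within each genotype (HFD minus SFD), the genotype effect within each diet (KO minus WT), the averages of these effects, and the interaction of diet and genotype. In the aorta 4 of 5 members could be tested, Edn3 being too low, and in the kidney all 5. The shares of all tested genes that passed in the aorta were 0% for the diet in WT and 0% in KO, 0.0811% for the genotype on SFD and 0.0811% on HFD, 3.95% for the average diet effect, 0.196% for the average genotype effect and 0% for the interaction. In the kidney they were 0.964%, 2.39%, 0.0133%, 0%, 4.62%, 0.0133% and 0% in the same order. Members with an unadjusted p under 0.05 numbered 1, 0, 1, 1, 0, 0 and 1 in the aorta, each time Edn1, and 0, 1, 1, 0, 0, 1 and 0 in the kidney, each time Edn3. The corresponding shares of all genes were 17%, 7.85%, 6.54%, 5.35%, 18.8%, 7.17% and 4.37% in the aorta and 8.05%, 16.1%, 8.69%, 1.75%, 18.2%, 5.93% and 3.35% in the kidney. DESeq2 also called 0 members in every contrast.

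**Figure D3:**
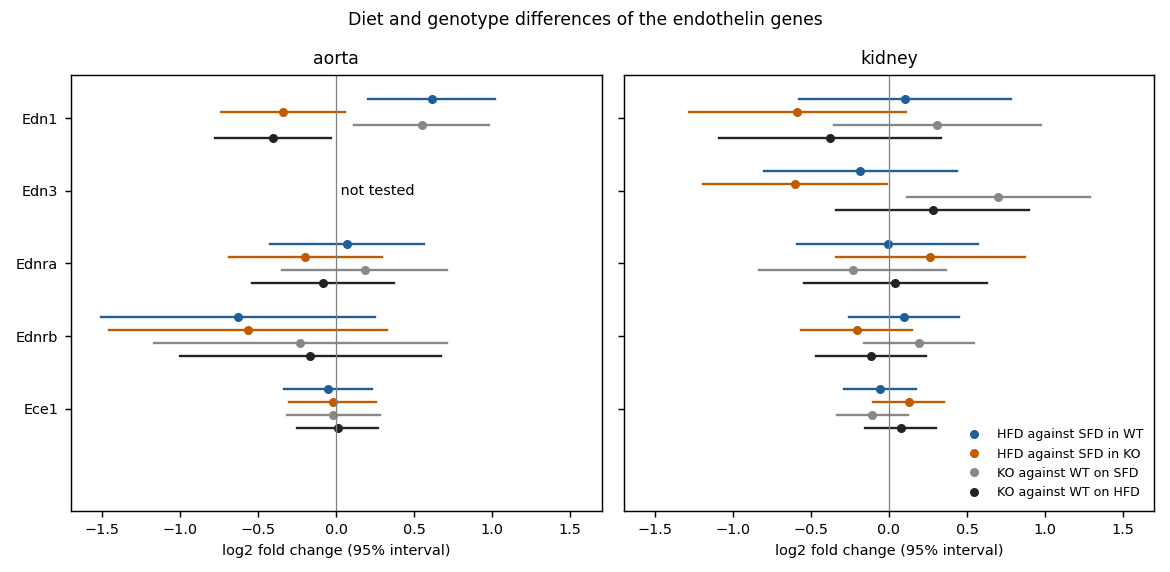
Log2 fold change of each tested member with its 95% confidence interval (edgeR) for the 4 simple comparisons in aorta and kidney. The intervals of Ece1 are the narrowest and enclose 0, and those that leave 0 out belong to Edn1 in the aorta and Edn3 in the kidney.

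Edn1, the gene of the vasoconstrictor ligand, had the smallest unadjusted p of the members in the aorta. On SFD the WT mice BS_1309, BS_1310 and BS_1445 had Edn1 at 14.5, 13.2 and 20.8 FPM, while WT-HFD mice BS_1442, BS_1443, BS_1447 and BS_1448 had 24.4, 24.3, 27.6 and 22.1 FPM. All WT-HFD aortae lay above all WT-SFD aortae, which was so for 4.43% of the genes tested. The fold change was 1.53, or 0.61 on the log2 scale (SE 0.19, 95% confidence interval 0.20 to 1.02), with an unadjusted p of 0.00605 and an edgeR adjusted p of 0.109. Without WT-SFD mouse BS_1445 the edgeR adjusted p of Edn1 was 0.0105, in a fit that called 1907 of 15329 genes, and without KO-SFD mouse BS_1319 it was 0.0496, in a fit that called 630 of 15226.

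The KO aortae showed another order. Edn1 stood at 17.0, 26.9 and 26.6 FPM in KO-SFD mice BS_1319, BS_1452 and BS_1507, and at 21.03, 17.6, 20.5 and 15.2 FPM in KO-HFD mice BS_1454, BS_1503, BS_1504 and BS_1505. The highest level on HFD lay between the lowest and the other KO-SFD mice, and the diet effect in KO was −0.34 (SE 0.19, interval −0.74 to 0.06, edgeR adjusted p = 0.672). On SFD, Edn1 was 0.55 higher in KO than in WT on the log2 scale (SE 0.20, interval 0.11 to 0.98, unadjusted p = 0.0167, edgeR adjusted p = 0.708), with mouse BS_1319 inside the WT range. In that contrast the 7 tested of 8 leucocyte markers had a median of 0.651 (4 at an unadjusted p under 0.05, as were 6.54% of all genes, none called by edgeR, median of all genes −0.0255). They summed to 105, 98.9 and 109 FPM in WT-SFD and to 222, 157 and 154 FPM in KO-SFD, with Lyz2 the most abundant and Cd3e without a count in any of these aortae. The median of the 12 adipocyte markers there was −1.11, with none called, and the part of these cells in the Edn1 difference was not tested beyond the adipocyte values given below. On HFD all KO aortae lay below all WT aortae, which was so for 2.03% of genes, with a difference of −0.41 (SE 0.17, interval −0.77 to −0.04, unadjusted p = 0.0336, edgeR adjusted p = 0.896).

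The test of whether the diet effect on Edn1 differed between the genotypes gave −0.95 on the log2 scale (SE 0.27, interval −1.52 to −0.38). Its unadjusted p was 0.00283, but 4.37% of all genes had an unadjusted p under 0.05 in this contrast, and the edgeR adjusted p was 0.96. The group means summarise the crossing, from 16.2 ± 4.06 (WT-SFD, n = 3) to 24.6 ± 2.27 FPM (WT-HFD, n = 4) in WT and from 23.5 ± 5.63 (KO-SFD, n = 3) to 18.6 ± 2.72 FPM (KO-HFD, n = 4) in KO (mean ± SD). The difference of −0.95 did not pass the threshold over all genes. Endothelial cells are the known source of endothelin 1, and their marker list was headed by Pecam1 at 292 to 484 FPM. The mean log2 CPM of the list was 6.08, 6.10 and 5.10 in WT-SFD, 5.34, 5.39, 5.44 and 5.23 in WT-HFD, 5.99, 5.48 and 5.21 in KO-SFD, and 4.97, 5.38, 5.27 and 5.01 in KO-HFD. Of its 10 tested genes 1, the growth factor receptor gene Kdr, fell in the average diet effect (−2.75, SE 0.52, edgeR adjusted p = 0.0168), in which 3.95% of all genes were called in either direction. Kdr was highest in mice BS_1309, BS_1310, BS_1319 and BS_1452 (13.1 to 60.7 FPM, others 1.47 to 6.88), the aortae rich in adipocyte transcripts described below, without which 0 genes were called in that contrast. The mean of the list was likewise highest in BS_1310, BS_1309 and BS_1319, and the part of endothelial content in the Edn1 levels was not tested. Cdh5 and Esam of that list had no count in any library and were not analysed here, which is not read as absence of the transcripts.

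**Figure D4:**
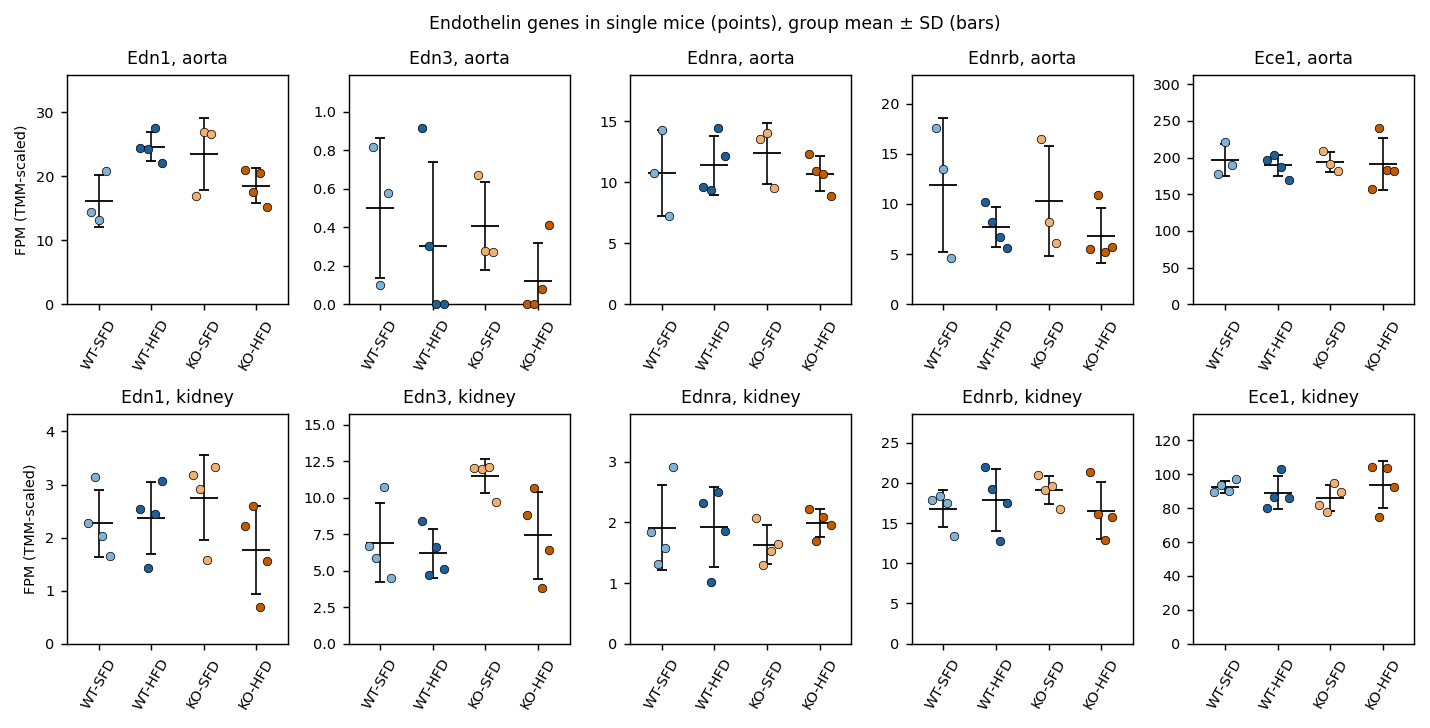
FPM of each member in every library by tissue and group, 1 point per mouse, with bars for group mean ± SD. In the aorta the Edn1 points of WT-HFD (22.1 to 27.6) lie above those of WT-SFD and of KO-HFD, and in the kidney the Edn3 points of 3 KO-SFD mice (12.0 to 12.1) form a tight cluster.

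Edn3 was barely detected in the aorta. The WT-SFD aortae had 6, 1 and 4 counts, the WT-HFD aortae 9, 3, 0 and 0, the KO-SFD aortae 5, 2 and 3, and the KO-HFD aortae 0, 0, 1 and 3. In the 4 aortae without a count, a level of up to 0.282 to 0.384 FPM would be allowed by 3 counts, which covers counting error only. Edn3 did not pass the filter on low counts in the aorta, so differences between its groups were not tested there. The 4 aortae without a count were all on HFD, as was the aorta with the highest count, 9. Edn2, the third endothelin gene, was at 0 counts in 10 of 14 aortae and 15 of 16 kidneys and reached no more than 3 counts.

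Ednrb was the tested member that varied most among the aortae. Its levels were 17.6, 13.4 and 4.62 FPM in WT-SFD mice BS_1309, BS_1310 and BS_1445 and 10.2, 8.24, 6.67 and 5.63 FPM in WT-HFD. They were 16.5, 8.22 and 6.16 FPM in KO-SFD mice BS_1319, BS_1452 and BS_1507 and 5.50, 10.9, 5.20 and 5.75 FPM in KO-HFD, where mouse BS_1503 was the highest. The groups overlapped in every comparison. Averaged over genotypes the diet effect was −0.60 (SE 0.29, interval −1.22 to 0.03, edgeR adjusted p = 0.291). Leaving out 1 aorta moved it to between −0.78 (without BS_1445) and −0.34 (without BS_1319). The genotype differences were −0.23 on SFD and −0.17 on HFD on the log2 scale (edgeR adjusted p 0.939 and 0.999), and the former was 0.013 with library totals in place of TMM.

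The level of Ednrb moved with adipocyte transcripts. The 12 adipocyte markers summed to 5490 and 4223 FPM in the aortae of WT-SFD mice BS_1309 and BS_1310 and to 3328 and 1102 FPM in those of KO-SFD mice BS_1319 and BS_1452, against 102 to 328 FPM in the other 10 aortae. Lpl was the most abundant of them, at 42.7 to 1512 FPM, and 11 of the 12 fell in the average diet effect (median of the list −3.55, median of all genes −0.0048). The 11 were Adipoq, Plin1, Cidec, Fabp4, Cfd, Ucp1, Pparg, Lipe, Lpl, Retn and Cidea, in a contrast where 3.95% of all genes were called. The 3 highest Ednrb levels came from mice BS_1309, BS_1319 and BS_1310, although HFD mice BS_1503, BS_1442 and BS_1443, with sums of 241, 199 and 189 FPM, had more Ednrb than mouse BS_1452. With the mean adipocyte marker level as a covariate the average diet effect on Ednrb was 0.32 in place of −0.60, and without those 4 aortae, with 1 mouse left in each SFD group, it was 0.45. The 4 fat-rich aortae were all on SFD, while SFD mice BS_1445 and BS_1507 had sums of 184 and 160 FPM, and beyond these values the part of adipocyte RNA in the Ednrb levels was not tested. In mouse BS_1309 the Schwann cell and melanocyte markers, led by Mitf, also summed to 132 FPM against 33.1 to 59.3 FPM in the other aortae.

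**Figure D5:**
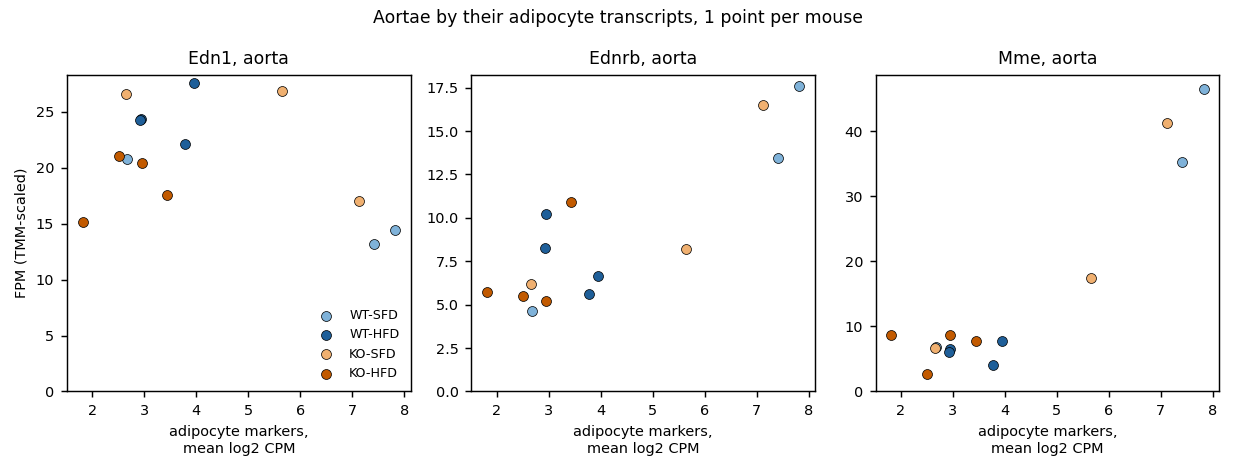
FPM of Edn1, Ednrb and Mme (the gene of an endothelin-degrading protease) in each aorta against the mean log2 CPM of 12 adipocyte markers in the same library, 1 point per mouse, coloured by group. The 4 aortae at the right, all SFD, include the 3 highest Ednrb levels (13.4 to 17.6 FPM) and the 4 highest Mme levels (17.4 to 46.5 FPM).

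Edn1 has to be read with the same libraries in mind, since its 3 lowest SFD values came from mice BS_1309, BS_1310 and BS_1319, although BS_1452, the other fat-rich aorta, had the highest Edn1 of the 6 SFD aortae (26.9 FPM). With the adipocyte covariate the diet effect in WT on Edn1 was 0.38 (edgeR adjusted p = 0.65), and without the 4 fat-rich aortae 0.25 (edgeR adjusted p = 0.901). In the same settings the diet effect in KO on Edn1 was −0.56 and −0.52 in place of −0.34 (edgeR adjusted p of 1 in both), and the genotype difference on HFD was −0.47 and −0.41 (edgeR adjusted p 0.356 and 0.397). The genotype difference of Edn1 on SFD was 0.47 with the covariate and 0.36 without the 4 aortae in place of 0.55, and 0.86 with library totals in place of TMM, a scaling under which the median aortic gene stood at 0.268 (edgeR adjusted p 0.513, 1 and 0.286). Without these 4 aortae each SFD group rests on 1 mouse (BS_1445 in WT, BS_1507 in KO), which is assumed to vary like the other groups, so every value given for this setting is that of a lone SFD mouse. BS_1445, at 20.8 FPM of Edn1, lay below all 4 WT-HFD aortae.

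Ednra and Ece1, the genes of the constrictor receptor and the converting enzyme, gave no call between the aorta groups. Ednra stood between 7.22 and 14.5 FPM, with the lowest and the highest library both in WT (mice BS_1445 and BS_1447), and its effects of diet were 0.07 in WT and −0.20 in KO (SE 0.23 each). The diet effect on Ednra in WT was 0.51 with the adipocyte covariate and 0.66 without the 4 fat-rich aortae (edgeR adjusted p 0.612 and 0.833). Genotype differences of Ednra were 0.18 on SFD (SE 0.25) and −0.09 on HFD (SE 0.21), all with an edgeR adjusted p of 0.853 or more, and the sign of each of these differences changed under at least 1 alternative setting or left-out library. Ece1 had the most counts of the members and the narrowest intervals. Its group means were 196 ± 22.1 (WT-SFD), 189 ± 14.8 (WT-HFD), 194 ± 13.4 (KO-SFD) and 191 ± 35.4 FPM (KO-HFD), with the widest spread in KO-HFD (157 to 241 FPM). The 4 differences lay between −0.05 and 0.01, and the interval that reached furthest from 0 ended at −0.33 (HFD against SFD in WT), so that larger changes of Ece1 lie outside all 4 intervals. The signs of the Ece1 differences also changed with left-out libraries.

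The genes that act around the members were counted by list. Of the 10 genes of endothelin processing and clearance 7 were tested in the aorta, and 1 fell in the average diet effect (3.95% of all genes called in either direction), Mme, which encodes neprilysin, a protease that degrades endothelins. The list's median was −0.61 against −0.0048 over all genes. Mme stood at 46.5, 35.3 and 6.79 FPM in WT-SFD, 6.53, 6.13, 7.82 and 4.09 FPM in WT-HFD, 41.3, 17.4 and 6.71 FPM in KO-SFD, and 2.69, 7.70, 8.64 and 8.62 FPM in KO-HFD. Its high values were those of the 4 aortae rich in adipocyte transcripts, and the other 10 lay between 2.69 and 8.64 FPM. The average diet effect on Mme was −1.95 (SE 0.42, edgeR adjusted p = 0.022), and it was −0.04 (edgeR adjusted p = 0.996) without those 4 aortae, which leaves 1 mouse in each SFD group. The call on Mme was also lost when any 1 of the following mice was left out, BS_1309, BS_1310, BS_1319, BS_1442, BS_1443, BS_1448 and BS_1505, with adjusted p from 0.0511 to 0.0976.

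Downstream of the receptors, 22 of 27 coupling genes were tested, and in the average diet effect, where 3.95% of all genes were called, 2 fell and none rose, with a list median of 0.12. Itpr2, an inositol trisphosphate receptor that releases calcium from stores, fell by 0.67 (SE 0.17, edgeR adjusted p = 0.0371), and Prkce, a protein kinase C isoform, fell by 0.78 (SE 0.20, edgeR adjusted p = 0.0385). Itpr2 was highest in mice BS_1309, BS_1319 and BS_1310 (123, 104 and 100 FPM, others 45.7 to 58.0), and so was Prkce (36.3, 30.0 and 26.4 FPM, others 10.8 to 15.7). Without the 4 fat-rich aortae the effects were −0.16 for Itpr2 and −0.11 for Prkce, and both calls held only when the library left out was that of mouse BS_1445, BS_1452 or BS_1507. Gnai2, Rhoa, Arhgef12, Trpc1 and Trpc6 had no count in any library and were not analysed here. A lack of counts in every library is not read as absence of the transcripts, and its cause was not tested. The list is incomplete to that extent.

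All 10 genes of receptor desensitisation were tested, and none passed the threshold in any of the 14 contrasts by edgeR. In the aortic average diet effect 2 were at an unadjusted p under 0.05, as were 18.8% of all genes. Of the 16 regulators of Edn1 transcription 14 were tested, and 1 fell in the average diet effect in the aorta, against 3.95% of all genes called in either direction. This was Pparg, the adipocyte master regulator, which also stands on the adipocyte list, at −2.67 (SE 0.59, edgeR adjusted p = 0.0246). The Pparg call held when mouse BS_1445, BS_1452, BS_1503 or BS_1507 was left out and was lost without any other aorta. Its levels ran from 16.4 to 66.3 FPM in the 4 fat-rich aortae, which were chosen by a marker list that holds Pparg, and from 1.72 to 5.35 FPM in the others. The 13 other tested regulators made no call in the aorta, and none of the 14 did in the kidney.

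In the kidney, Edn3 showed the clearest group pattern. Its levels were 6.67, 5.84, 10.7 and 4.48 FPM in WT-SFD mice SMMHC1309, SMMHC1446, SMMHC1694 and SMMHC1695, and 12.1, 12.0, 12.1 and 9.72 FPM in KO-SFD mice SMMHC1303, SMMHC1318, SMMHC1319 and SMMHC1451. Only WT-SFD mouse SMMHC1694 reached into the KO-SFD range. Edn3 was 0.70 higher in KO than in WT on SFD (1.62-fold, SE 0.28, interval 0.11 to 1.29, unadjusted p = 0.0224), with an edgeR adjusted p of 0.532. Means were 6.93 ± 2.68 (WT-SFD) and 11.5 ± 1.16 FPM (KO-SFD, SD, n = 4 each).

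On HFD the Edn3 levels were 8.42, 4.69, 6.59 and 5.11 FPM in WT mice SMMHC1535, SMMHC1613, SMMHC1641 and SMMHC1642 and 8.84, 10.6, 3.80 and 6.44 FPM in KO mice SMMHC1437, SMMHC1504, SMMHC1520 and SMMHC1558. These groups overlapped, and the genotype difference was 0.28 (SE 0.29, edgeR adjusted p = 1). The diet effect was −0.60 in KO (SE 0.28, interval −1.19 to −0.02, unadjusted p = 0.0449, edgeR adjusted p = 0.296) and −0.18 in WT (SE 0.29, edgeR adjusted p = 0.976). The interaction was −0.42 (SE 0.40, edgeR adjusted p = 1), so a difference between the diet effects was not shown. Leaving out 1 kidney moved the Edn3 interaction to between −0.75 (without WT-SFD mouse SMMHC1694) and −0.21 (without KO-HFD mouse SMMHC1520). The average genotype effect was 0.49 (SE 0.20, unadjusted p = 0.027, edgeR adjusted p = 0.834).

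Markers of cell types in the kidney are set beside these Edn3 values. Over all genes, 8.69% had an unadjusted p under 0.05 by edgeR for KO against WT on SFD and 16.1% for the diet effect in KO. The 12 adipocyte markers had a median of 1.02 for KO against WT on SFD (1 at an unadjusted p under 0.05, none called by edgeR). In the diet effect in KO their median was −0.993 (5 at an unadjusted p under 0.05). Of these markers, Lep rose there (4.91, SE 1.04, edgeR adjusted p = 0.0158) and Lpl fell (−1.07, SE 0.27, edgeR adjusted p = 0.0423), where 2.39% of all genes were called. In the diet effect in KO the thick ascending limb markers had a median of −0.594 (3 of 4 tested, all 3 at an unadjusted p under 0.05) and the podocyte and mesangial markers one of 0.395 (8 tested, 4 at an unadjusted p under 0.05), with no call by edgeR in either list. For KO against WT on SFD the podocyte and mesangial markers had a median of −0.394 (5 of 8 at an unadjusted p under 0.05) and summed to 327 to 425 FPM in WT-SFD and 291 to 310 FPM in KO-SFD, with Podxl the most abundant. The smooth muscle markers had a median of 0.245 in that contrast (7 of 10 tested, 3 at an unadjusted p under 0.05), with Smtn the most abundant and Tagln and Cnn1 without a count, and no gene of either list was called by edgeR. They summed to 191, 237, 201 and 184 FPM in WT-SFD and to 259, 285, 205 and 242 FPM in KO-SFD. The fibroblast markers had a median of 0.38 for KO against WT on SFD (8 tested, 1 at an unadjusted p under 0.05, none called by edgeR). KO-HFD mouse SMMHC1520 had the lowest Edn3 of all 16 kidneys and also the lowest Edn1 (0.696 FPM, 11 counts) and the lowest mean of the thick ascending limb markers (7.64 log2 CPM, others 8.13 to 8.84). The collecting duct markers, headed by Aqp2 at 434 to 1513 FPM, averaged 6.26 log2 CPM in mice SMMHC1520 and SMMHC1558 and 6.32 to 6.89 in the others, with 6.77, 6.79, 6.67 and 6.85 in KO-SFD. Avpr2 and Hsd11b2 of that list and Kcnj1 of the thick ascending limb list had no count in any library, which is not read as absence of the transcripts. With the collecting duct level as a covariate the Edn3 differences were 0.45 for KO against WT on SFD, 0.0026 for KO against WT on HFD, 0.23 for the average genotype effect and −0.35 for the diet in KO. Without mouse SMMHC1520 the diet effect on Edn3 in KO was −0.39, and without mouse SMMHC1504 it was −0.84. The genotype difference of Edn3 on HFD was 0.49 without SMMHC1520 and 0.041 without SMMHC1504. The part of these cell types in the Edn3 values was not tested further.

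Edn1 was low in the kidney, with 11 to 66 counts a library, and its groups overlapped throughout. The levels were 2.28, 3.14, 2.02 and 1.66 FPM in WT-SFD, 2.54, 1.43, 2.44 and 3.06 FPM in WT-HFD, 3.18, 2.91, 1.58 and 3.33 FPM in KO-SFD, and 2.22, 2.60, 0.696 and 1.56 FPM in KO-HFD. The diet effect on Edn1 was 0.10 in WT (SE 0.32) and −0.59 in KO (SE 0.33, edgeR adjusted p = 0.405). The effect on Edn1 in KO was −0.35 without SMMHC1520, −0.86 without SMMHC1504 and −0.35 with the collecting duct covariate. Its intervals were the widest of the members, −1.28 to 0.11 for the diet in KO.

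Ednrb, the clearing receptor, had overlapping groups in the kidney. It stood between 12.8 and 22.0 FPM, at 17.9, 18.3, 17.5 and 13.4 FPM in WT-SFD, 22.0, 19.2, 12.8 and 17.5 FPM in WT-HFD, 21.02, 19.1, 19.6 and 16.7 FPM in KO-SFD, and 21.3, 16.2, 12.9 and 15.8 FPM in KO-HFD. The 4 differences of Ednrb ran from −0.21 (diet in KO, SE 0.17) to 0.19 (genotype on SFD, SE 0.17), with edgeR adjusted p of 0.574 or more. Leaving out 1 kidney moved the former to between −0.35 (without SMMHC1437) and −0.099 (without SMMHC1520). It moved the latter to between 0.095 (without SMMHC1695) and 0.25 (without SMMHC1451). Ednra ranged from 1.02 to 2.91 FPM and its differences from −0.23 to 0.26 with SE of 0.27 to 0.29, with an interval that reached 0.87 for the diet in KO. Ece1 ranged from 74.8 to 104 FPM, with differences from −0.11 to 0.13 (SE 0.11 each).

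Around the members in the kidney, 5 of 10 processing and clearance genes were tested and none passed the threshold by edgeR. In the average diet effect 1 was at an unadjusted p under 0.05, as were 18.2% of all genes. Mme ranged from 66.5 to 146 FPM. Of the 22 coupling genes tested 1 rose in the average diet effect, where 4.62% of all genes were called, and the same gene rose in the diet effect in KO, where 2.39% were. This was Gna12, a G protein alpha subunit through which receptors act on the cytoskeleton. Gna12 stood at 116, 136, 108 and 142 FPM in WT-SFD and 137, 169, 164 and 147 FPM in WT-HFD, and at 110, 114, 94.9 and 125 FPM in KO-SFD and 134, 135, 174 and 175 FPM in KO-HFD. All KO-HFD kidneys lay above all KO-SFD kidneys, which was so for 5.02% of genes. Gna12 rose with HFD by 0.39 on average (SE 0.09, edgeR adjusted p = 0.0138) and by 0.48 in KO (SE 0.12, edgeR adjusted p = 0.0497), just inside the threshold. The call in KO was lost when SMMHC1309, SMMHC1695, SMMHC1641, SMMHC1642, SMMHC1303, SMMHC1318, SMMHC1319, SMMHC1451, SMMHC1520 or SMMHC1558 was left out (adjusted p 0.0506 to 0.164), and the average effect held without each of the 16 kidneys. With the collecting duct covariate the adjusted p was 0.069 for the average effect and 0.132 in KO.

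Genes whose log2 CPM followed a member most closely over all libraries of a tissue are given as a description, since the libraries share groups and tissue composition. Among 12092 genes over 14 aortae, Edn1 was followed most closely by 0610007P14Rik (r = 0.846), Wrnip1 (0.841) and Zfp13 (0.837), and Ednrb by 4632428N05Rik (0.953), Sh3bp5 (0.938) and Map3k11 (0.935). Ednra went with Acyp2, Cbr1 and Mov10 (0.845, 0.839 and 0.822) and Ece1 with Cep78, Nfkbib and Inpp5d (0.853, 0.817 and 0.806). The closest likeness in the kidney, among 12954 genes over 16 libraries, was that of Edn3 with Ephb2 (0.947), Gprc5a (0.941) and Trim61 (0.931). Edn1 there went with Syt13 and Slc6a12 (0.846 and 0.841), Ednra with C1qtnf1, Dlc1 and Ntrk3 (0.899, 0.802 and 0.801), Ednrb with Pdgfrl, Gpr182 and Mgst2 (0.882, 0.864 and 0.845) and Ece1 with Gm5475, Fbrsl1 and Dennd1a (0.842, 0.801 and 0.799).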

How the data were processed

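The authors deposited raw counts per gene for 14 aorta and 16 kidney libraries (ribosomal RNA removed, paired-end), 1 column per mouse. Per the submitters' notes the reads were trimmed with cutadapt, aligned with TopHat to mm10 and counted with featureCounts. Genes were annotated through biomaRt. The strand setting of the counting is not given in the sources used here. The tissues were sequenced at different places and were fitted separately.

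Genes passing edgeR's filterByExpr (14796 in aorta, 15034 in kidney) were tested with edgeR 4.0.16 (R 4.3.3, TMM, glmQLFit and glmQLFTest, all groups of a tissue in 1 fit) with Benjamini-Hochberg adjustment across the genes of a tissue and calls at an adjusted p under 0.05. The script was tested on simulated data. Positions and exon lengths were taken from GENCODE vM21, which held 40254 of the 41128 gene identifiers. Alternatives were other scaling, filters, DESeq2 1.42.0, marker covariates and leaving out libraries. No pair of libraries were copies of each other (smallest chi-square per gene 8.38 in aorta, 9.21 in kidney). The members, the gene lists and the 4 aortae called fat-rich (adipocyte marker values) were chosen with earlier results of these data known. Named were the members, Egfr, list genes that passed the threshold, were the most abundant of a marker list, or were at 0 or untested, and for each tested member the 3 protein-coding genes with the highest Pearson correlation of log2 CPM (prior count 2), of which 1 is not reported here. Intervals cover the spread between single mice, and count limits cover counting error only.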

Additional observations from a re-analysis of the deposited data

Results flagged for a closer look

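Among 30 groups of 4 libraries, each member in each such group, 3 held a mouse whose gap to its nearest neighbour took up more than 0.829 of the group's range (Dixon's limit for 4 samples), where chance gives about 1 in 20. In the kidney, Edn3 in KO-SFD mouse SMMHC1451 was low at 9.72 FPM beside 12.0 to 12.1 FPM in the other 3 mice. Ednrb in KO-HFD aorta of mouse BS_1503 was high at 10.9 FPM beside 5.20 to 5.75 FPM. Ednrb in the WT-SFD kidney of mouse SMMHC1695 was low at 13.4 FPM beside 17.5 to 18.3 FPM.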

How the results depend on the processing

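The number of members called was 0 in all 14 contrasts in every alternative, with 1 exception. For HFD against SFD in WT aorta it ranged from 0 to 1 over the libraries left out, the 1 being Edn1, without WT-SFD mouse BS_1445 (0.83, adjusted p 0.0105, 1907 of 15329 genes called) or KO-SFD mouse BS_1319 (0.62, adjusted p 0.0496, 630 of 15226 genes called). Of 1095 alternative values of 47 named results, 976 kept direction and side of the threshold, 62 lost the call, 2 gained it and 55 changed sign, 40 of these within 1 SE of the reported value. Low counts limit Edn3 in aorta and Edn1 and Ednra in kidney. No paired analysis was possible because the groups compared share no mouse numbers.

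With the adipocyte covariate, Ednrb was 0.39 (diet in WT), 0.26 (diet in KO), 0.13 (KO against WT on SFD) and 0.32 (average diet), Ece1 0.020, 0.046 and 0.0024 in the first 3 of these, Ednra 0.19 (diet in KO) and 0.030 (KO against WT on HFD), and Pparg 0.46, Mme −0.30, Itpr2 −0.18 and Prkce −0.16 (average diet). Pparg is itself among the markers averaged in this covariate, and the 4 fat-rich aortae were chosen by these markers. Its values in both settings are therefore no independent check. Without the 4 fat-rich aortae, which leaves 1 mouse in each SFD group (so KO against WT on SFD is 1 mouse against 1, with the spread taken from the HFD groups), Ednrb was 0.74, 0.16, 0.42 and 0.45 in the same order, Ednra 0.66 (diet in WT) and 0.17 (diet in KO), Ece1 0.070 (diet in KO), Pparg 1.02, Mme −0.036, Itpr2 −0.16 and Prkce −0.11. With library totals in place of TMM, Ece1 was 0.063 (diet in WT) and 0.26 (KO against WT on SFD), Ednrb 0.013 (KO against WT on SFD), Ednra 0.0073 (KO against WT on HFD), kidney Ednra 0.013 (diet in WT) and Egfr −0.49 (average genotype, call lost). With that scaling the median aortic gene stood at 0.268 for KO against WT on SFD (−0.026 with TMM), 0.17 for the average genotype effect (−0.013), −0.197 for the interaction (0.022), 0.0999 for the diet in WT (−0.012) and −0.11 for the diet in KO (−0.0019). Ece1 for KO against WT on SFD was 0.012 without the filter and 0.013 with only the groups compared. In kidney, Edn3 for the diet in WT was 0.099 with the collecting duct covariate, Ednra 0.0019 with the legacy quasi-likelihood, and Gna12 in KO 0.47 without the filter, 0.48 with legacy, 0.47 with only the groups compared and 0.35 with the covariate (average diet 0.28), the call being lost in each of these. The cause was not tested.

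Leaving out 1 library changed the sign of some members. In aorta the ranges were −0.14 to 0.34 for Ednra and −0.12 to 0.043 for Ece1 (diet in WT), −0.16 to 0.057 for Ece1 (diet in KO), −0.033 to 0.45 for Ednra, −0.75 to 0.14 for Ednrb and −0.086 to 0.075 for Ece1 (KO against WT on SFD), and −0.17 to 0.053 for Ednra and −0.12 to 0.10 for Ece1 (KO against WT on HFD). In kidney they were −0.051 to 0.29 for Edn1, −0.38 to 0.14 for Edn3, −0.14 to 0.27 for Ednra and −0.027 to 0.22 for Ednrb (diet in WT), −0.37 to 0.049 for Ednra (KO against WT on SFD), and −0.17 to 0.18 for Ednra and −0.26 to 0.013 for Ednrb (KO against WT on HFD). The interaction for Edn1 in aorta stayed between −1.17 and −0.83 and Edn3 for KO against WT on SFD in kidney between 0.53 and 1.03.

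Over all genes tested, the aortic average diet effect had 584 calls, 981 by DESeq2, 3 with the covariate, 0 without the 4 fat-rich aortae and 0 to 1929 with 1 library left out. The diet in WT aorta had 0 calls, 648 by DESeq2, 312 with library totals, 347 without the filter and up to 1907 without 1 library (mouse BS_1445). DESeq2 gave 23 and 40 calls against 12 and 12 for the aortic genotype contrasts on SFD and HFD, and 260, 682 and 1082 against 145, 360 and 695 for the kidney diet contrasts (WT, KO, average).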

Other observations

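Among the marker lists read beside the endothelin genes, smooth muscle markers gave no call in the average diet effect in the aorta (8 of 10 tested, 4 at an unadjusted p under 0.05, median 0.27) or the kidney (7 tested, 1 at an unadjusted p under 0.05, edgeR). Tagln and Cnn1 had no count in any library and were not analysed here, which is not read as absence of the transcripts. In the kidney 2 of 8 proximal tubule markers rose in the average diet effect, where 4.62% of all genes were called, and the median of the 8 was 0.010. Slc5a2, which encodes the glucose transporter SGLT2, stood at 281 to 470 FPM in the 8 SFD kidneys and at 667 to 1453 FPM in the 8 HFD kidneys, and rose by 1.37 on the log2 scale (SE 0.15, edgeR adjusted p = 1.87e-05). Slc5a12, a lactate transporter gene, rose by 0.94 (SE 0.18, edgeR adjusted p = 0.00509). Of the 12 adipocyte markers 1 rose and 2 fell in the same kidney contrast. These were Lep (3.97, SE 0.66), Cfd (−3.86, SE 0.80) and Lpl (−1.07, SE 0.19), with edgeR adjusted p of 0.00128, 0.00843 and 0.00231. In the aorta 1 of 4 tested proximal tubule markers, Slc27a2, fell in the average diet effect (−4.75, SE 0.95, edgeR adjusted p = 0.0168), where 3.95% of all genes were called. The fat-rich aortae, all on SFD, enter this contrast, and 11 of the 12 adipocyte markers fell in it too (median −3.55). The part of adipocyte RNA in the Slc27a2 value was not tested.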
